A study of Mus musculus with 16 samples.

Results

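The genes of 3 peptide signals of the gut wall and of their receptors were followed across the mouse colon: vasoactive intestinal peptide (VIP, gene Vip), pituitary adenylate cyclase-activating peptide (PACAP, gene Adcyap1) and calcitonin gene-related peptide (CGRP, genes Calca and Calcb), with the receptor genes Vipr1, Vipr2, Adcyap1r1, Calcrl and Ramp1. They were taken by symbol from the count table and are 9 of its 56748 genes, and all 9 passed the filter on low counts in each comparison. RNA came from the longitudinal muscle and myenteric plexus (LMMP), the outer muscle coat with the nerve plexus embedded in it, of the proximal and the distal colon. Each of the 4 groups had 4 libraries: WT proximal, HSCR proximal, WT distal and HSCR distal. WT mice were Ednrb+/+ and HSCR mice Ednrb-/-, homozygous for the germline allele Ednrb tm1Ywa, which disrupts the endothelin B receptor gene in all tissues. They were littermates of both sexes, of about weaning age, on a hybrid C57BL6/J-129Sv background. Ednrb-/- mice are a model of Hirschsprung disease (HSCR), in which the distal colon lacks enteric ganglia. Their proximal segment was set by its distention and checked by immunostaining for the neuronal marker Tuj1. The labels do not state which libraries came from the same mouse, so the p-values measure the spread between libraries.

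VIP, PACAP and CGRP act on receptors that couple through Gs to adenylate cyclase and raise cyclic AMP. Neurons of the myenteric plexus that make VIP and nitric oxide relax the colonic muscle, and PACAP is also found in such inhibitory neurons. VPAC1 and VPAC2, encoded by Vipr1 and Vipr2, bind VIP and PACAP, while PAC1, encoded by Adcyap1r1, prefers PACAP. The CGRP receptor is a pair of proteins, the receptor CALCRL and the accessory subunit RAMP1. Calcb encodes beta CGRP, which is made by intrinsic sensory neurons of the mouse gut. Calca yields calcitonin or alpha CGRP by alternative splicing and is used by the sensory nerves that enter the gut from outside.

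The libraries held between 21384372 and 45831881 counted reads, of which mitochondrial genes took 4.32% to 49.8%. The targeted gene did not follow the labels in each library. Ednrb stood at 33.9 to 67.7 CPM, the read count relative to a library size scaled by TMM, in WT proximal and at 7.85 to 36.3 CPM in HSCR proximal libraries, and at 12.2 to 40.2 CPM in WT distal libraries. It stood at 5.55, 5.83 and 9.57 CPM in the libraries labelled HSCR distal 2, 3 and 4, but at 97.0 CPM, the highest of all 16, in the library labelled HSCR distal 1. Reads are counted over the whole gene, so exons outside the disrupted part can contribute. Hoxd13, a gene of the posterior body axis, stood at 0.904 to 23.9 CPM in WT proximal and at 112 to 201 CPM in WT distal libraries. The library labelled HSCR proximal 1 held 125 CPM of Hoxd13, whereas those labelled HSCR distal 1 and HSCR distal 4 held 0.629 and 14.1 CPM. On Hoxd13 these 3 HSCR libraries thus went against their segment label, and the comparisons of the members are given with and without them. Hoxa13, at 9.72 to 24.8 CPM in WT proximal and 28.6 to 32.6 CPM in WT distal libraries, went against the label in the first of them at 38.3 CPM and in HSCR distal 1 at 10.2 CPM. In HSCR distal 4 Hoxa13 stood at 41.2 CPM and went with the label. Hoxd12 at 0.738 CPM and Hoxb13 at 0.0461 CPM went against it there, inside the WT proximal range and below each WT distal library. More of these Hox genes thus went against the label of that library than with it, but they do not place it in 1 segment. Libraries that went with their label on Hoxd13 had exceptions too. HSCR distal 2 held 18.2 CPM of Hoxa13, inside the WT proximal range. HSCR proximal 2 held 37.01 CPM of Hoxb13, above each WT proximal library. The library labelled HSCR proximal 2 held the most epithelial RNA, with a summed 10839 CPM over 6 epithelial genes. The tissue entry names the proximal colon for distal libraries as well, so the segment was taken from the titles.

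The 4 peptide genes are shown first by the sequence before their starts, because peptide genes of this kind are known targets of CREB, the factor that binds the cyclic AMP response element (CRE) and so links the receptors to further peptide synthesis. The stretches are the 150 bases before the GENCODE start on GRCm39, each read 5′ to 3′ on the strand of its gene, with the CRE core TGACG in capitals. They lie at chr10:5589036-5589185 (plus strand) for Vip, chr17:93506290-93506439 (plus) for Adcyap1, chr7:114235593-114235742 (minus) for Calca and chr7:114317728-114317877 (plus) for Calcb.
Vip: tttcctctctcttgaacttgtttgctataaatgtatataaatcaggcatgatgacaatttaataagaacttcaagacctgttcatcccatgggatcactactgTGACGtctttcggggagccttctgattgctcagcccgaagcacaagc
Adcyap1: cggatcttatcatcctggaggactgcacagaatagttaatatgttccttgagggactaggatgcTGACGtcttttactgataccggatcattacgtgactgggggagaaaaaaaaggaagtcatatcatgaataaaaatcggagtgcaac
Calca: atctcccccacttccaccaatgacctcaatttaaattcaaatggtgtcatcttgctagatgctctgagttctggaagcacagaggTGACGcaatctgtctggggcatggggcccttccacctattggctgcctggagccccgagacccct
Calcb: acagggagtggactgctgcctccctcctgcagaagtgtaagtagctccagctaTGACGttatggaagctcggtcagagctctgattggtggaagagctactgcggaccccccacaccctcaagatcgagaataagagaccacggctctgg
Each of the 4 held the core exactly 1 time within 250 bases, and its first base lay 47 bases before the start in Vip, 86 in Adcyap1, 65 in Calca and 97 in Calcb. Among the receptor genes Vipr1 held it on the opposite strand, 6 bases before its start, and Vipr2, Adcyap1r1, Calcrl and Ramp1 held none. Searched on both strands in the same way, 18% of 21770 protein-coding genes had the core and 1.69% had the whole palindrome TGACGTCA, which contains it and which none of the 9 genes had. A match in letters is a description and does not show binding.

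Per length of transcript, in FPKM, Ramp1 had the highest median level over the 16 libraries, at 17.9, followed by Vip at 15.9, Adcyap1r1 at 8.35 and Calcrl at 4.96. Vipr2 followed at 1.98, and the medians of Calcb at 0.803, Vipr1 at 0.453, Adcyap1 at 0.254 and Calca at 0.229 FPKM were all below 1. The ranges of neighbours in this order overlapped throughout. What set the genes apart was how far they spread. Calcrl and Ramp1 varied 4.77-fold and 4.58-fold between the lowest and the highest library, whereas Vip varied 4647-fold, from 0.346 to 1607 CPM. Reads were absent in 1 library for Calcb, in 2 for Vipr1 and in 5 each for Adcyap1 and Calca, where a count of 0 allows up to 3 reads, or between 0.0692 and 0.130 CPM depending on the library.

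**Figure D1:**
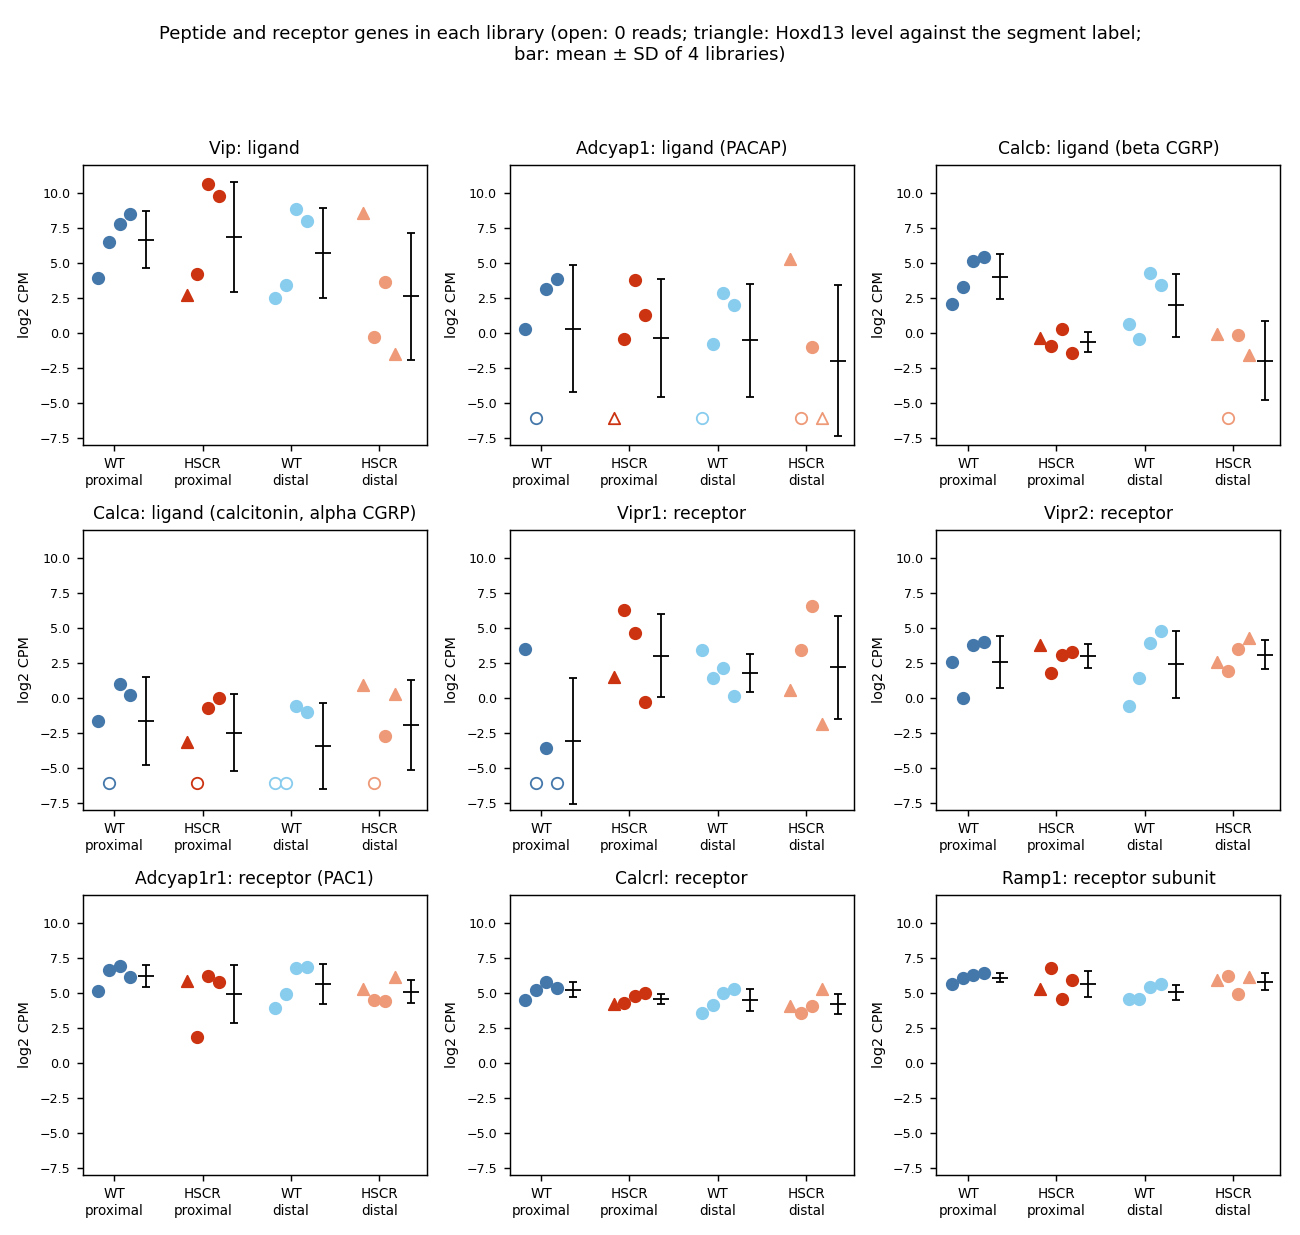
Expression of the 9 genes as log2 CPM (vertical axis) in each of the 16 libraries, by group, with the mean ± SD of 4 libraries as a bar. Open symbols have 0 reads and triangles are the 3 HSCR libraries whose Hoxd13 levels went against their segment label. The points of Calcrl and Ramp1 lie close together, those of Vip, Adcyap1 and Vipr1 are widely spread, and the 4 HSCR proximal points of Calcb all lie below the 4 WT proximal ones.

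Vip (chr10:5589218-5597617) separated libraries more than groups. It stood at 14.9, 90.2, 217 and 367 CPM in WT proximal libraries 1 to 4 and at 6.62, 18.9, 1607 and 871 CPM in those labelled HSCR proximal 1 to 4. The HSCR proximal group thus held the 2 highest values of the series and 1 value below all 4 WT proximal libraries, and the groups overlapped. In the distal colon the WT libraries held 5.54, 10.8, 477 and 256 CPM and the libraries labelled HSCR distal 1 to 4 held 386, 0.820, 12.4 and 0.346 CPM. Only the library labelled HSCR distal 1, which goes against its label, was high in that group. The group means were 172 ± 154 CPM in WT proximal, 626 ± 769 in HSCR proximal, 187 ± 226 in WT distal and 99.9 ± 191 in HSCR distal (SD, n = 4 each).

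In edgeR's quasi-likelihood test the log2 fold change of Vip, HSCR over WT, was 1.83 with a standard error (SE) of 1.50 in the proximal colon (adjusted p = 0.820) and -0.94 with an SE of 1.97 in the distal colon (adjusted p = 1.00). Replicates 1 and 2 of all groups share a scheme of library names, and what the naming stands for is not given. Replicates 3 and 4 carry names of 2 other schemes, of which 1 covers both distal groups and HSCR proximal library 3 and the other covers WT proximal libraries 3 and 4 and HSCR proximal library 4. The proximal difference in mean log2 CPM was -1.71 among replicates 1 and 2 and 2.07 among replicates 3 and 4, where the lowest HSCR library exceeded the highest WT library. With the first scheme against all other names as a term of the fit, the log2 fold change was close to 0, and without the library labelled HSCR proximal 1 it was 2.26. Without the library labelled HSCR distal 1 the distal log2 fold change of Vip was -5.47 (adjusted p = 0.832 from edgeR).

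The level of Vip went with the amount of neuronal RNA. The mean log2 CPM of 10 pan-neuronal genes such as Elavl4, Uchl1 and Snap25 was 5.39, 6.70, 7.88 and 7.69 in WT proximal libraries 1 to 4, and 2.04, 2.32, 6.22 and 6.12 in those labelled HSCR proximal 1 to 4. It was 1.79, 4.38, 7.19 and 6.70 in WT distal libraries and 6.02, 2.26, 1.05 and -0.45 in those labelled HSCR distal 1 to 4. In whole tissue, fewer neurons and less RNA per neuron cannot be told apart. The 3 HSCR libraries with the most neuronal RNA, those labelled proximal 3, proximal 4 and distal 1, had less of it than WT proximal libraries 2 to 4. All 3 had more Vip than each of the 4 WT proximal libraries. The library labelled HSCR distal 1, at 386 CPM, had less Vip than WT distal library 3, at 477 CPM. Measured against the neuronal list on the log2 scale, Vip lay between -1.49 and 0.82 in the WT proximal libraries and between 0.69 and 4.43 in the HSCR proximal ones. In the distal colon the HSCR range, from -2.53 to 2.58, enclosed the WT range, from -0.95 to 1.71. With the neuronal list as a term of the proximal fit, a choice made after seeing the data, the log2 fold change of Vip was 4.85 with an SE of 0.50 (edgeR, adjusted p = 0.0701), which did not pass the threshold of 0.05. For the distal colon the same fit gave 1.26 with an SE of 1.11. All 10 genes of the list were lower in HSCR in both segments, so the term is partly confounded with genotype. HSCR proximal libraries 1 and 2, at 2.04 and 2.32, lay below every WT proximal library on the list.

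Adcyap1 (chr17:93506445-93513965), the PACAP gene, was scarce and followed Vip across libraries, with a Pearson correlation of log2 CPM of 0.81 over the 16 libraries, which share the neuronal content just described. It stood at 1.21, 0, 8.94 and 14.5 CPM in WT proximal and at 0, 0.731, 14.0 and 2.40 CPM in HSCR proximal libraries. Its distal values were 0, 0.577, 7.24 and 3.92 CPM in WT libraries and 38.4, 0, 0.486 and 0 CPM in those labelled HSCR distal 1 to 4. The library with the most Adcyap1 was thus again the one labelled HSCR distal 1. The log2 fold changes of -0.56 (SE 1.79) in the proximal and 1.69 (SE 2.23) in the distal colon had adjusted p-values of 0.964 and 1.00 in edgeR, and the distal one became -4.23 without that library. A lncRNA gene, Gm32465, overlaps Adcyap1 by 462 bases on the other strand, and since the strand setting of the counting is not stated, reads there cannot be assigned with certainty.

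Calcb (chr7:114317878-114322600), the beta CGRP gene, had the largest edgeR log2 fold change of the 9 members between genotypes in both segments with all libraries included. That order depended on the measure and the libraries. The difference in mean log2 CPM, which rests on the prior count where libraries have 0 reads, was larger for Vipr1 in the proximal colon, at 6.11 against -4.63 for Calcb. In the distal colon without the 3 doubtful HSCR libraries, the edgeR value of Vip was larger than that of Calcb, at -4.92 against -4.25. Calcb stood at 4.14, 9.91, 36.2 and 44.2 CPM in WT proximal libraries 1 to 4 and at 0.750, 0.512, 1.18 and 0.358 CPM in those labelled HSCR proximal 1 to 4. Every HSCR proximal library was below every WT proximal library, with group means of 0.699 ± 0.357 and 23.6 ± 19.6 CPM (SD, n = 4 each). The log2 fold change was -5.10 with an SE of 0.86, and by its p of 0.000216 in edgeR's quasi-likelihood test, which was fitted across all genes, Calcb ranked 9th of 16664 genes. After adjustment over all genes the p was 0.399 in edgeR, so Calcb was not called, and 0% of the genes were called in either genotype comparison, between HSCR segments or for the interaction. Calcb was 1 of the 9 members lower at an unadjusted p under 0.05, beside 4.13% of all genes tested, and 1 of 9 whose HSCR libraries all lay lower, beside 2.83%. An exact two-sided permutation test of its mean log2 CPM gave p = 0.0286, the smallest that 4 against 4 libraries can give. Any groups of this size that do not overlap give this value, so it adds nothing to the separation. In the same test the other members had p from 0.0857 for Vipr1 to 0.943 for Vip.

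Among replicates 1 and 2, which share a naming scheme, the groups were separated by a mean log2 CPM difference of -3.34. Replicates 3 and 4 were separated by -5.91 but mix the other 2 schemes, and within the one that holds both genotypes WT proximal libraries 3 and 4 stood at 36.2 and 44.2 CPM and HSCR proximal library 4 at 0.358 CPM. Leaving out each library in turn gave log2 fold changes from -5.45 to -4.61, with -5.11 when the library labelled HSCR proximal 1 was left out. The call depended on the method. DESeq2 gave -5.07 with an adjusted p of 1.02e-07, beside 74 higher and 165 lower genes called of 19194. The RUVr fit with a likelihood ratio test, named in the study's methods, gave -4.47 with an adjusted p of 8.69e-18. It called 1847 higher and 1347 lower of 16664 genes, with 4 factors estimated from the same libraries that were tested. The adjusted p over the other alternatives reached 1.00.

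Calcb was low in all HSCR libraries, both those with more and those with less neuronal RNA. The library labelled HSCR distal 1 and HSCR proximal libraries 3 and 4, with 6.02 to 6.22 on the neuronal list, held 0.358 to 1.18 CPM of Calcb, whereas WT distal library 4 and WT proximal library 2, at 6.70 on that list, held 10.6 and 9.91 CPM. WT proximal library 1, with less neuronal RNA than those 3 HSCR libraries, at 5.39, held 4.14 CPM, from 55 reads. That library also had the fewest counted reads of the series, 21384372, and the highest mitochondrial share, 49.8%. With the neuronal list as a term the proximal log2 fold change of Calcb was -4.04 with an SE of 1.35 (edgeR, adjusted p = 1.00).

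In the distal colon Calcb stood at 1.54, 0.721, 19.6 and 10.6 CPM in WT libraries and at 0.915, 0, 0.890 and 0.323 CPM in those labelled HSCR distal 1 to 4. The groups overlapped through WT distal library 2, which lay between the HSCR values. The log2 fold change was -3.98 with an SE of 1.38 (edgeR, adjusted p = 1.00). Calcb was again the 1 member of 9 lower at an unadjusted p under 0.05, beside 1.76% of all genes, and without the 3 doubtful HSCR libraries, a fit that left 2 HSCR distal libraries, the value was -4.25 (edgeR, adjusted p = 1.00).

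**Figure D2:**
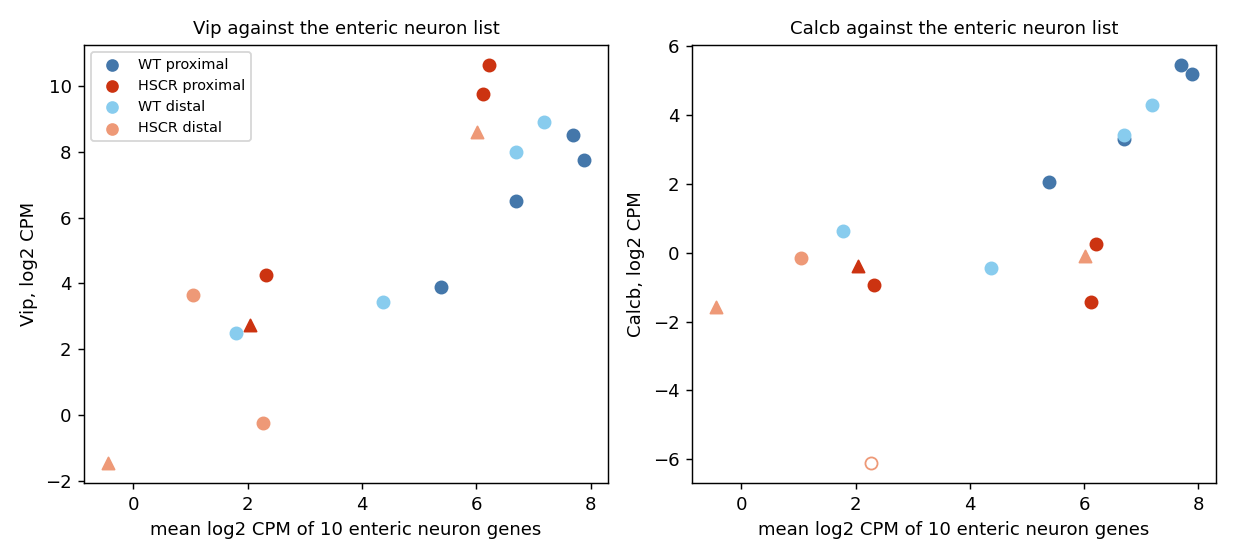
Log2 CPM of Vip (left) and Calcb (right) against the mean log2 CPM of 10 enteric neuron genes, with 1 point per library, coloured by group. Open symbols have 0 reads and triangles are the 3 HSCR libraries whose Hoxd13 levels went against their label. Near 6 on the horizontal axis 3 HSCR libraries lie at 8.59 or more in the Vip panel, above all 4 WT proximal libraries, and at 0.25 or less in the Calcb panel. WT distal library 3 lies at 8.90 in the Vip panel.

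The ratio of the peptide genes was also taken within single libraries, where it does not depend on library size. Vip FPKM over Calcb FPKM was 1.34, 3.38, 2.22 and 3.08 in WT proximal libraries 1 to 4 and 3.28, 13.7, 508 and 904 in those labelled HSCR proximal 1 to 4. The HSCR value of library 1 fell inside the WT range and the other 3 lay above it. In the WT distal libraries the ratio was 1.34, 5.54, 9.03 and 8.98. In the library labelled HSCR distal 1 it was 157, in those labelled 3 and 4 it was 5.16 and 0.398, and with 0 reads of Calcb it was not defined in library 2. The HSCR ratios rest on only 10 to 64 Calcb reads per library, and that of HSCR distal 4 on 15 Vip reads. WT distal libraries 1 and 2 had 46 and 25 Calcb reads.

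Calca (chr7:114230713-114235592), which lies 82285 bases from Calcb on the other strand, was at the limit of detection, with at most 82 reads in a library. It stood at 0.301, 0, 1.95 and 1.12 CPM in WT proximal and at 0.100, 0, 0.606 and 1.00 CPM in HSCR proximal libraries. Distal values were 0, 0, 0.672 and 0.493 CPM in WT libraries and 1.86, 0, 0.135 and 1.18 CPM in those labelled HSCR distal 1 to 4, and the groups overlapped in both segments. Its log2 fold changes of -1.02 (SE 1.54) and 1.38 (SE 1.74) had adjusted p-values of 0.903 and 1.00 in edgeR. A gene count does not tell calcitonin from CGRP transcripts. Transcripts of Calca and Calcb shared 12 stretches of 50 bases, which is 0.487% of those in Calca and 0.567% of those in Calcb, and Calca shares 1660 bases with the lncRNA gene Gm71828 on its own strand.

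Among the receptors, Vipr1 (chr9:121471782-121502020), the VPAC1 gene, went with the amount of epithelial RNA in the libraries. It stood at 11.1, 0, 0.0712 and 0 CPM in WT proximal and at 2.75, 76.8, 25.2 and 0.823 CPM in those labelled HSCR proximal 1 to 4. The distal values were 10.8, 2.65, 4.47 and 1.08 CPM in WT libraries and 1.46, 10.9, 97.3 and 0.254 CPM in those labelled HSCR distal 1 to 4. The library labelled HSCR distal 3 and HSCR proximal library 2 were the highest of the series. They also led a list of 6 epithelial genes (Epcam, Cdh1, Krt8, Krt20, Lgals4 and Vil1), at a mean log2 CPM of 8.68 and 10.2.

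Across the groups the list, whose summed level was 15.2 to 1470 CPM in WT proximal, 121 to 10839 in HSCR proximal, 79.0 to 1827 in WT distal and 65.2 to 3751 in HSCR distal libraries, moved with Vipr1, and its part in the genotype difference was not tested. That difference was a log2 fold change of 3.26 with an SE of 2.08 in the proximal colon (edgeR, adjusted p = 0.782) and 2.48 with an SE of 1.49 in the distal colon (adjusted p = 1.00). It rested on few libraries: without WT proximal library 1 the proximal value was 9.55, against a group left with 3 reads in all, and without the library labelled HSCR distal 3 the distal value was -0.17.

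**Figure D3:**
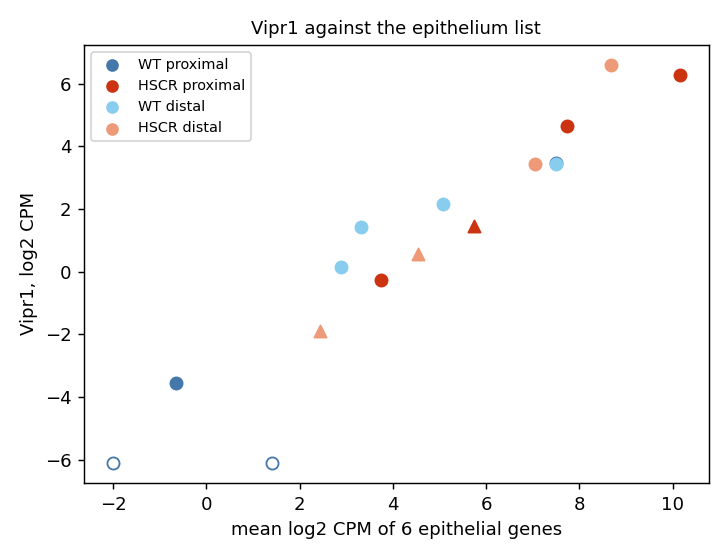
Log2 CPM of Vipr1 (vertical axis) against the mean log2 CPM of 6 epithelial genes (horizontal axis), with 1 point per library, coloured by group. Open symbols have 0 reads and triangles are the 3 HSCR libraries whose Hoxd13 levels went against their label. In each of the 4 groups the library with the most epithelial RNA had the most Vipr1.

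Vipr2 (chr12:116041346-116109881), the VPAC2 gene of gut smooth muscle, did not separate the genotypes. Its group means were 9.18 ± 6.97 CPM in WT proximal, 8.87 ± 4.31 in HSCR proximal, 11.5 ± 12.6 in WT distal and 10.2 ± 7.06 in HSCR distal (SD, n = 4 each). Values ran from 0.668 CPM in WT distal library 1 to 27.9 CPM in WT distal library 4, so that 1 group spanned the whole range of the series. The log2 fold changes were -0.08 (SE 0.77) and -0.23 (SE 0.99), with adjusted p-values of 0.988 and 1.00 in edgeR, and their sign turned under other settings, among them the fit without TMM scaling in the proximal colon. The lncRNA genes Gm46383 and Gm20658 overlap Vipr2 on the other strand, the latter over 38638 bases.

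Adcyap1r1 (chr6:55428963-55478436), the PAC1 gene, was the most abundant of the 3 VIP and PACAP receptor genes per length. It stood at 36.1, 99.2, 119 and 71.1 CPM in WT proximal and at 57.5, 3.66, 73.3 and 56.3 CPM in HSCR proximal libraries. HSCR proximal library 2, the one with the most epithelial RNA, was far below the other 15. The distal values were 15.5, 30.9, 113 and 118 CPM in WT libraries and 39.2, 22.1, 21.9 and 71.4 CPM in those labelled HSCR distal 1 to 4. The log2 fold changes of -0.80 (SE 0.74) and -0.88 (SE 0.68) were in the same direction and about as large as their errors, with adjusted p-values of 0.836 and 1.00 in edgeR.

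Calcrl (chr2:84160970-84255755), the ligand-binding part of the CGRP receptor, which pairs with RAMP2 or RAMP3 as an adrenomedullin receptor of endothelium, was among the steadiest members. It stood at 22.5, 38.0, 55.9 and 41.8 CPM in WT proximal and at 19.0, 19.2, 27.0 and 31.7 CPM in HSCR proximal libraries. Only WT proximal library 1 fell inside the HSCR range, and the groups were separated among replicates 1 and 2 and among replicates 3 and 4, the latter across naming schemes. The log2 fold change was -0.74 with an SE of 0.34 (edgeR, adjusted p = 0.748). Distal WT libraries held 11.7, 17.7, 32.3 and 39.7 CPM and those labelled HSCR distal 1 to 4 held 16.8, 12.1, 16.5 and 38.1 CPM, with a log2 fold change of -0.31 (SE 0.49). The 4 blood endothelial genes Pecam1, Cdh5, Kdr and Vwf summed to 104 to 249 CPM in WT proximal and 37.7 to 396 CPM in HSCR proximal libraries, and their part was not tested.

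Ramp1 (chr1:91107544-91152918), the subunit that makes the receptor one for CGRP, was detected in all libraries at 23.6 CPM or more. It stood at 49.8, 67.3, 77.3 and 87.7 CPM in WT proximal, 39.4, 108, 23.8 and 61.7 CPM in HSCR proximal, 24.2, 23.6, 42.9 and 49.0 CPM in WT distal and 60.8, 73.8, 30.0 and 72.4 CPM in the libraries labelled HSCR distal 1 to 4. Its HSCR values spanned the WT values in the proximal colon, and in the distal colon 3 of the 4 lay above all WT values. The log2 fold changes were -0.31 (SE 0.44) in the proximal and 0.74 (SE 0.39) in the distal colon, with adjusted p-values of 0.889 and 1.00 in edgeR.

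**Figure D4:**
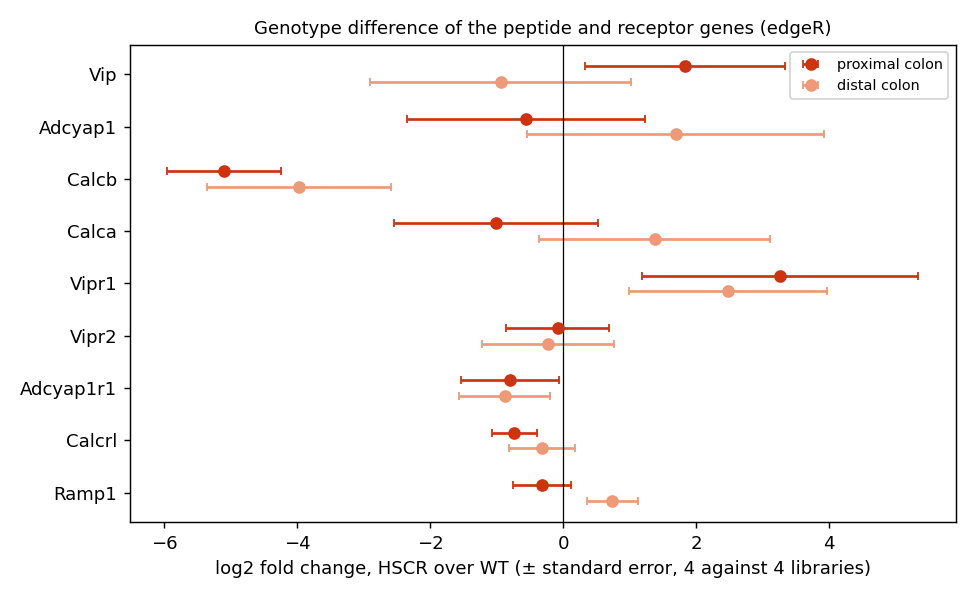
Log2 fold change of each gene, HSCR over WT, in the proximal and the distal colon, from edgeR with 4 against 4 libraries, and its standard error as a bar. Calcb lies furthest from 0 in both segments, at -5.10 and -3.98, and the bars of Vip, Vipr1, Adcyap1 and Calca are longer than those of Calcrl and Ramp1.

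Without the library labelled HSCR proximal 1, the proximal log2 fold changes of the receptor genes were 3.63 for Vipr1, -0.36 for Vipr2, -0.88 for Adcyap1r1, -0.62 for Calcrl and -0.15 for Ramp1. Those of Adcyap1 and Calca were then -0.12 and -0.66, and each member kept its direction. In the distal colon, with the 2 HSCR libraries whose Hoxd13 levels went with their label against the 4 WT libraries, the values were -4.92 for Vip, -3.65 for Adcyap1, -2.12 for Calca, 3.47 for Vipr1, -0.69 for Vipr2, -1.72 for Adcyap1r1, -0.88 for Calcrl and 0.54 for Ramp1. Adcyap1 and Calca thus changed direction, and no adjusted p was under 0.05 in edgeR in either set.

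Between the segments of the WT colon, Ramp1 was the member whose groups separated. All 4 WT distal libraries held less Ramp1 than any WT proximal library, with means of 34.9 ± 13.0 and 70.5 ± 16.1 CPM (SD, n = 4 each). The log2 fold change, distal over proximal, was -0.99 with an SE of 0.32 (edgeR, adjusted p = 0.906). An exact two-sided permutation test of the mean log2 CPM gave p = 0.0286, which the separation alone fixes. In that test the other members had p from 0.143 for Vipr1 to 0.886 for Vipr2. Ramp1 was the 1 member of 9 lower at an unadjusted p under 0.05, beside 2.06% of all genes, and the 1 of 9 whose groups did not overlap, beside 1.9% of all genes lower in the same way. Over all genes 0.0181% were called in this comparison, and no member was among them. Calcb and Calcrl had log2 fold changes of -1.52 (SE 1.04) and -0.62 (SE 0.43), and in both the distal libraries of replicates 1 and 2 lay below the proximal ones. Those of replicates 3 and 4 did as well, but there the segments have different naming schemes, so segment and scheme cannot be told apart, which holds for Ramp1 too.

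With all 8 HSCR libraries no member reached an unadjusted p under 0.05 between the segments, beside 1.49% of all genes. The log2 fold change of Vip was -2.66 with an SE of 2.2 (edgeR, adjusted p = 1.00). It depended on the label of single libraries. Without those labelled HSCR proximal 1 and HSCR distal 1 it was -7.60 (edgeR, adjusted p = 0.920), with the 3 remaining distal libraries at 0.346 to 12.4 CPM and the 3 remaining proximal ones at 18.9 to 1607 CPM. Leaving out the library labelled HSCR distal 4 as well gave -7.06 (edgeR, adjusted p = 1.00). Adcyap1 stood at 1.18 with all libraries, at -5.16 without the first pair and at -4.57 without all 3, and Calca at 0.85, -0.34 and -2.97. Calcb was -0.41, -0.79 and -0.66 in the same order. The 5 receptor genes lay between -0.33 and 0.16 with all libraries and between -1.07 and 0.67 without the 3, and no member was called in edgeR in any of these fits.

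Whether the genotype difference itself differed between segments was tested in 1 fit over all 16 libraries. For Vip the interaction was -2.77 with an SE of 2.67 on the log2 scale (edgeR, adjusted p = 1.00), and -7.71 without the libraries labelled HSCR proximal 1 and HSCR distal 1 (adjusted p = 1.00). Without all 3 doubtful libraries it was -7.17. For Calcb it was 1.15 with an SE of 1.50 (edgeR, adjusted p = 1.00), 0.74 without that pair and 0.88 without the 3. With all libraries no member had an unadjusted p under 0.05, beside 1.44% of all genes.

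The proteins that cut, amidate and store such peptides are shared by all of them. Of 12 genes for peptide processing and dense-core vesicles, 10 were lower in HSCR proximal colon, with a median log2 fold change of -1.31 against 0.04 over all genes tested. None was called, and 2 of the 12 were lower at an unadjusted p under 0.05, beside 4.13% of all genes. Pcsk1n, an inhibitor of prohormone convertase 1, had the smallest p among those lower, with means of 304 CPM in WT proximal and 59.1 CPM in HSCR proximal libraries and a log2 fold change of -2.39 (SE 0.90, edgeR, adjusted p = 0.747). Pam, the enzyme that amidates the C-termini of VIP, PACAP and CGRP, was the higher gene with the smallest p, at 0.13 (SE 0.63). Distally, 9 of the 12 were lower, with a median of -1.56, and Pcsk2, prohormone convertase 2, was lowest by p at -3.92 (SE 1.65, edgeR, adjusted p = 1.00), while Vgf stood at 1.44 (SE 2.25). All 12 were lower in the distal than the proximal segment of WT mice, with a median of -0.95 and none at an unadjusted p under 0.05. These genes are active in neurons and enteroendocrine cells alike, and 2 measures of the list differed in a library poor in these cells. The library labelled HSCR distal 4 held a summed 2119 CPM of the 12 genes. Such a sum rests mostly on abundant genes such as Cpe and Pam, with HSCR distal means of 863 and 353 CPM. The mean log2 CPM of the 12 genes in HSCR distal 4 was only 0.86, against 7.46 and 7.41 in WT proximal libraries 3 and 4. HSCR distal 4 held a summed 21.0 CPM of the neuronal list and 0.138 CPM of a list of enteroendocrine genes. The part of neuronal RNA in these differences was not tested.

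Genes of the cascade downstream of the receptors lay on both sides of 0 in the proximal colon. Of 23 genes from Gnas, which encodes the Gs alpha subunit, to Creb1, 22 were tested in the proximal colon, where 11 were higher and 11 lower, with a median log2 fold change of 0.01. Pde4b, a cyclic AMP phosphodiesterase, stood at 0.80 (SE 0.58) and Prkar1b, a regulatory subunit of protein kinase A found mainly in neurons, at -1.39 (SE 0.66, edgeR, adjusted p = 0.750). Distally, 7 were higher and 15 lower, with a median of -0.20 against 0.04 over all genes. Prkar2b, another regulatory subunit, was the 1 gene of 22 lower at an unadjusted p under 0.05, beside 1.76% of all genes, at -1.16 (SE 0.43, edgeR, adjusted p = 1.00), and the catalytic subunit gene Prkacb stood at 0.43 (SE 0.32). In WT colon the adenylate cyclase gene Adcy7 was higher in the distal segment by 1.58 (SE 0.52, edgeR, adjusted p = 0.906).

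Other ligands and receptors of the calcitonin and secretin families were mostly absent or low. Of 16 genes, 8 could be tested in the proximal colon, 5 of them higher and 3 lower, and none reached an unadjusted p under 0.05. Sct, the secretin gene of enteroendocrine cells, stood at 3.95 (SE 2.18) and Ramp3, an alternative partner of Calcrl, at -1.09 (SE 0.62). Ramp3 held 9.09 ± 1.01 CPM in WT proximal and 4.31 ± 3.01 CPM in HSCR proximal libraries (SD, n = 4 each). Of 7 tested in the distal colon 4 were higher and 3 lower, with Gcg, the proglucagon gene, at 1.88 (SE 1.43) and Glp2r, the receptor of its product GLP-2, at -0.99 (SE 0.79).

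For each member the genes with the most similar pattern were read from the Pearson correlation of log2 CPM over the 16 libraries, as a description, since the libraries share their neuronal and epithelial content. Pdyn was closest to Vip, at 0.96, before Ass1 and Ptprn. Pcdh10, at 0.94, and then Ano2 and Cnr1 were closest to Calcb. The nearest gene was Tmprss4 to Vipr1 at 0.98, Gsg1l2 to Calca at 0.95, Man2a2 to Adcyap1r1 at 0.95, Wscd1 to Calcrl at 0.91, Ctso to Vipr2 at 0.91 and Cckbr to Adcyap1 at 0.90. Ramp1 had the least similar neighbour, 1700020L24Rik, at 0.82.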

How the data were processed

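RNA-seq libraries of poly-A RNA from colonic LMMP were assigned to groups from their titles. The authors aligned the reads with HISAT2 2.2.1 to mm39, and the deposited counts are whole reads per gene from featureCounts 2.0.6 with a GENCODE gene model, without normalization. The deposited FPKM values equal the counts per gene length times 1 constant per library, and were used only for levels. The deposited comparison columns hold the authors' fold changes and p-values and were not used. Counts were tested with edgeR 4.0.16 (R 4.3.3), with its quasi-likelihood test after filterByExpr and TMM, separately for each comparison of 4 against 4 libraries and over all 16 for the interaction. The p-values were adjusted by Benjamini-Hochberg over the 16664, 17059, 16566, 17086 and 18619 genes tested, and a gene was called at an adjusted p under 0.05 and a log2 fold change beyond 1. CPM used TMM-scaled library sizes, and log2 CPM a prior count of 0.5. Permutation tests used all exact regroupings.

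The alternatives were DESeq2 1.42.0, no TMM factors, no filter, RUVr with 4 factors, all 16 libraries in 1 fit, the replicate number, naming scheme or neuronal list as a term, and leaving out libraries. The script was tested on simulated data. The members and lists were chosen with earlier results of these data known. The genes named are the members, Ednrb, the list genes called or otherwise with the smallest p in each direction, and for each member the 3 with the highest correlation. Calca and Calcb, and genes overlapped by another gene, are uncertain where reads could be split. Promoters were read from GRCm39 with GENCODE M39. Counting error adds to the spread between libraries for members with under 100 reads, which were Calca in all 16 libraries, Calcb in 11, Adcyap1 in 10, Vipr1 in 8, Vipr2 in 5 and Vip in 2.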

Additional observations from a re-analysis of the deposited data

Results flagged for a closer look

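Adcyap1r1 had a single library far from the others of its group. In HSCR proximal library 2 it stood at 3.66 CPM, against 56.3 to 73.3 CPM in the other 3, and the gap to the nearest of them was 0.912 of the range of the group on the log2 scale, above Dixon's 95% critical value for 4 libraries. Of the 36 combinations of member and group tested in this way it was the 1 past that value, and chance passes about 1 in 20. The same library held the most RNA of the epithelial list and the least of the smooth muscle list, at a mean log2 CPM of 10.2 and 8.51.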

How the results depend on the processing

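No member was called in any of the 5 comparisons with edgeR, while the number of genes called depended on the method. Against 0 called genes, DESeq2 gave 239 in the proximal and 50 in the distal genotype comparison, 4 between HSCR segments and 9 for the interaction, and RUVr with 4 factors gave 3194, 1450, 614 and 727. At an unadjusted p under 0.05 edgeR gave 414 higher and 689 lower genes in the proximal and 150 and 300 in the distal comparison, 254 between HSCR segments and 269 for the interaction. In the proximal comparison the naming scheme as a term gave 4 and the neuronal list as a term, chosen after seeing the data, gave 1. Between WT segments 3 genes were called, 70 with DESeq2, 2540 with RUVr, 0 with all 16 libraries in 1 fit, and 0 to 2 with each library left out. The count was 0 without any of WT distal 2, 3 and 4 and WT proximal 1, 3 and 4.

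The replicate numbers were not treated as pairs, since the labels do not state which libraries came from the same mouse. The lowest correlation of a same-numbered pair was -0.117 in the proximal and -0.214 in the distal genotype comparison. It was 0.000134 between HSCR segments. Between WT segments the 4 pairs ran from 0.0959 to 0.417, so pairing there was neither shown nor excluded. With the replicate block 1 gene was called between WT segments and 0 in the other comparisons, and Calcb stood at -4.66 in the proximal colon. Each library correlated best with its own number in 1, 2, 3 and 2 of 4 cases in the 4 group comparisons.

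Among the differences described that kept their direction, RUVr alone called the following, all on the log2 scale. They were Vipr1 at 14.40 and Adcyap1r1 at -1.11 in the proximal colon, and Vip at -2.48 and Calcb at -3.76 in the distal colon. Between WT segments they were Calcb at -1.82 and Ramp1 at -1.01. It called 1847 higher and 1347 lower of 16664 genes in the proximal colon and 526 and 924 of 17059 in the distal colon. Between segments it called 1307 and 1233 of 16566 genes in WT and 99 and 515 of 17086 in HSCR mice. Over the 45 combinations of member and comparison, 10 of 801 alternative values kept their direction and were called, some of them outside the differences described. Another 99 turned direction, in 28 combinations that include segment and interaction comparisons. For the differences described they were as follows. In the proximal colon Vip was -0.0071 with the naming scheme as a term. Vipr2 was 0.21 without TMM factors, 0.26 with RUVr, 0.36 with the replicate block, 0.28 with the scheme and 0.38 with the neuronal list as a term, and -0.46 to 0.34 with each library left out. Adcyap1 was 9.09 with RUVr, which called it, 2.14 with the neuronal list and -2.57 to 0.30 with each library left out, and with the neuronal list Adcyap1r1 was 0.0077 and Calca 1.13. In the distal colon Vip was 1.26 with the neuronal list and -5.47 to 0.13 with each library left out, the highest without WT distal 3. Vipr1 was -0.17 to 3.26 in that way. Vipr2 was 0.52 with RUVr, 0.54 with the block, 0.51 with the scheme, 0.77 with the neuronal list and -0.78 to 0.67 with each library left out. Adcyap1 was -0.45 with RUVr, -4.01 with the block, -3.65 without the 3 HSCR libraries whose Hoxd13 levels went against their label and -4.23 to 2.68 with each left out, and Calca was -2.12 without those 3. Between HSCR segments Adcyap1 was -6.21 with RUVr, which called it, -4.28 with the block, -5.16 without the libraries labelled HSCR proximal 1 and distal 1 and -4.57 without all 3, and Calca was -0.34 and -2.97 without those libraries. With each library left out Adcyap1 was -4.75 to 3.22, Calca -0.0068 to 1.64 and Calcb -0.82 to 0.019. The interaction of Vip was 1.71 with the scheme as a term. The cause was not tested. Calcb kept its direction in both genotype comparisons under all alternatives run. Without TMM the median log2 fold change of all genes was 0.30 in the proximal comparison, against 0.04. At most 82 reads of Calca in a library leave its direction undetermined.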
